A study of Mus musculus with 12 samples.

Results

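The genotype effect described here is that of Ciz1 loss in the cerebellum of XX mice, taken as 3 arrays of knockout females against 3 arrays of wild-type females. These are 6 of the 12 arrays of a study of both sexes, each holding total cerebellar RNA of 1 mouse on an Affymetrix whole-transcript array. The knockout animals are labelled Ciz1-/-. The controls are named wild type in their source name and Ciz1+/+ in the extraction protocol, but Ciz1+/- in the genotype field, so the labels disagree on them. The age is 10 months in the protocol and 6 to 10 months in the series design, for all groups alike. The labels name no strain, no litter and no method behind the Ciz1 allele. The other 6 arrays, from XY animals, 3 knockout and 3 wild type, entered the fit as a shared estimate of the spread, and their genotype effect is set beside that in XX where a difference between the sexes was tested.

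Ciz1 encodes a zinc finger protein of the nuclear matrix that binds the cyclin-dependent kinase inhibitor made by Cdkn1a, promotes the start of DNA replication and anchors Xist RNA on the inactive X chromosome. Only XX cells carry an inactive X, and the Xist cloud on it silences most, though not all, genes of that chromosome. A variant in human CIZ1 has been linked to cervical dystonia, a movement disorder in which the cerebellum is thought to take part. The cerebellum is made up mainly of granule cells, with Purkinje cells, inhibitory interneurons, Bergmann glia and the myelinated axons of its white matter.

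All levels below are log2 of the deposited intensity, and every difference is knockout minus wild type on that scale. Of 22180 genes tested, the median difference in XX was 0.0016. Between arrays of the same XX group the log2 differences had an SD over genes of 0.195 to 0.211. Xist, the RNA that coats the inactive X, stood at 11.88 to 12.28 in the 6 XX arrays. In the XY arrays it was 5.75 to 6.67, apart from wild-type XY array 3 at 8.71. The Y-linked genes Kdm5d, Uty and Eif2s3y lay between 3.95 and 5.39 in every XX array and between 8.56 and 9.18 in every XY array, that array included. On the first principal component of the 12 arrays, which held 15.99% of the variance, the 3 knockout XX arrays lay at 10.7 to 16.01 and the other 9 at -12.2 to 3.54. As a yardstick for dim signals, 95% of 1105 olfactory receptor genes had a mean level under 6.47. Purkinje and granule cell genes were bright, with mean list levels of 9.86 to 9.97 and 10.78 to 10.91 in the XX arrays. The median gene stood at 6.97. The summed intensity of 17 tested Purkinje genes was 34819 to 36936 in wild type and 36557 to 37179 in knockout XX arrays.

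In XX, 5 of 22180 genes (0.0225%) passed the test (limma, Benjamini-Hochberg adjusted p under 0.05), with 3 higher in the knockout (0.0135%) and 2 lower (0.00902%). The lower ones were Ciz1 itself and Opalin, a membrane protein of myelinating oligodendrocytes. The higher ones were 1110008P14Rik, the gene next to Ciz1 in the RefSeq gene order, Sdf2l1, a component of a chaperone complex in the endoplasmic reticulum, and Ces3b, a carboxylesterase. An unadjusted p under 0.05 was reached by 1884 genes (8.49%). With that p under 0.01, 258 genes were higher (1.16% of all tested) and 216 lower (0.974%). A gene whose 3 knockout arrays all lay above its 3 wild-type arrays was counted as not overlapping, which held for 1655 genes (7.46%), and the reverse for 1644 (7.41%). Differences were mostly small: 117 genes differed by over 0.5, of which 20 were brighter than the median gene, and 4 by over 1.0.

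Ciz1 was at 8.90, 8.70 and 8.80 in the wild-type XX arrays and at 7.31, 7.17 and 7.09 in the knockout XX arrays. The groups were far apart, with each knockout array below each wild-type array. The mean fell from 8.80 ± 0.10 to 7.19 ± 0.12 (SD, n = 3 each), which is 3.05-fold lower, at -1.61 on the log2 scale (SE 0.10; limma adjusted p = 8.7e-05). In XY the difference was -1.67, and the test between the sexes did not pass (limma adjusted p = 0.999). The knockout arrays kept a signal above the olfactory yardstick. The labels do not say whether the probes lie in the altered part of the gene, so the remaining signal is not a measure of remaining protein.

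The neighbour 1110008P14Rik, an uncharacterised gene named here after its values were seen, was at 9.28, 9.17 and 9.18 in wild type and 10.14, 9.96 and 10.15 in knockout. It rose by 0.87 (SE 0.07; limma adjusted p = 0.000617), or 1.83-fold, with a like value of 0.76 in XY. The next genes of that side did not pass. Lcn2, which encodes the iron-binding protein lipocalin 2, differed by 0.11 (SE 0.22), and Ptges2, a prostaglandin E synthase, by 0.34 (SE 0.08; adjusted p = 0.276), from 7.43 ± 0.10 to 7.78 ± 0.11. Ptges2 did not overlap between the XX groups, and its difference in XY was 0.17.

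**Figure D1:**
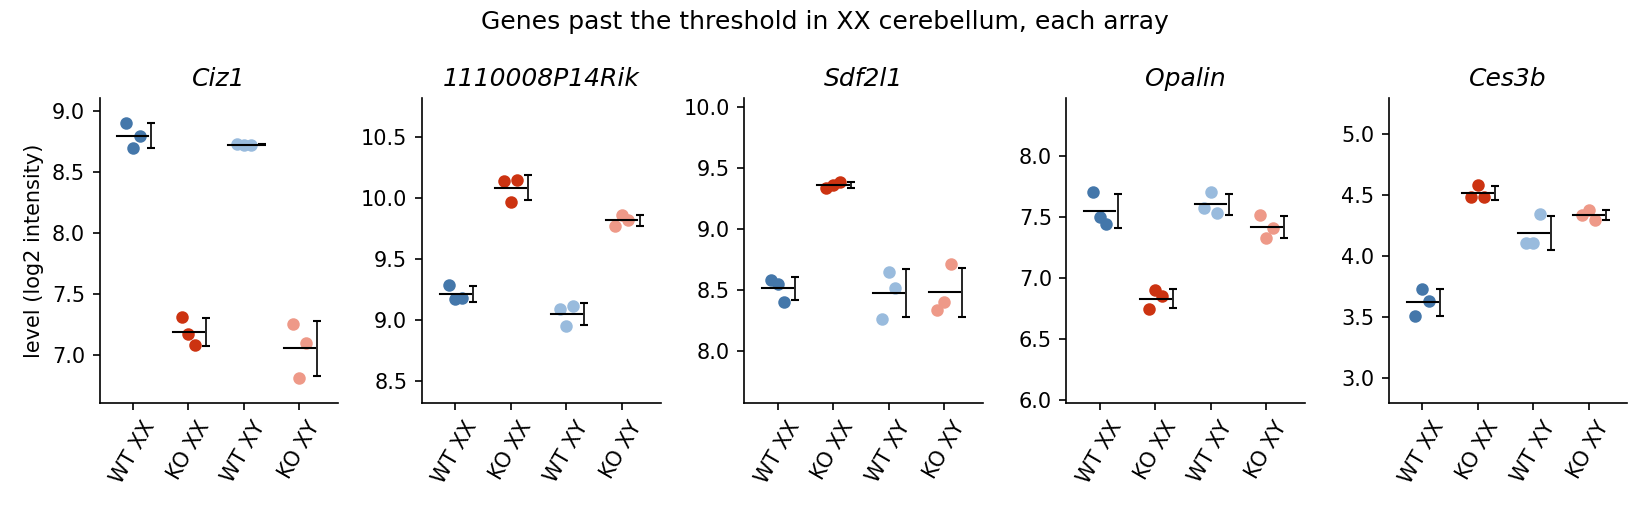
Level (log2 intensity, y axis, 2.5 units in each panel) of the 5 genes past the threshold in XX, with 1 point per array in the 4 groups of genotype and sex; the line is the mean of 3 arrays and the bar beside it the SD. Ciz1 and 1110008P14Rik differed alike in XX and XY, whereas Sdf2l1 lay between 9.34 and 9.38 in knockout XX arrays and between 8.26 and 8.71 in all others.

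The endoplasmic reticulum (ER) folds secreted and membrane proteins with the help of chaperones, disulfide isomerases and a machinery that removes misfolded chains. When unfolded chains accumulate, the sensors Atf6 and Ire1 raise the transcription of these helpers through Atf6 and Xbp1, which act at ER stress elements in the promoters. In knockout XX cerebellum the genes of this group lay higher than in wild type: of 29 tested members of a list of 30, 23 were higher and 6 lower, where 50.6% of all genes were higher on average. No overlap between the XX groups was seen for 15 members, all higher, where 7.46% of all genes behaved so (9.47% of genes brighter than the median). At an unadjusted p under 0.01 there were 9 members higher and 0 lower, against 1.16% of all genes higher. Their median difference was 0.15 in XX and 0.02 in XY, with medians of 0.0016 and -0.0045 over all genes. In XY, 3 members were higher without overlap (4.66% of all genes) and 1 lower (5.64%). Of the 29, only Sdf2l1 passed the test in XX. This list, too, was chosen with earlier results of these data known.

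Promoters are shown for 8 members that carry the ER stress element named above, 6 that did not overlap between the XX groups and 2 that did. Sdf2l1, with the largest difference of the list, and Xbp1 held no such element in the window searched. Each window is taken from the RefSeq promoter table of build GRCm38.p6, read 5′ to 3′ on the strand of the gene, with the element in capitals and 25 flanking bases on each side. The element searched was the ER stress element, CCAAT and CCACG with 9 bases of any kind between them, on either strand. The groups overlapped for Canx and Ero1b, the last of the 8.
Hspa5, chr2:34772000-34772068 (+ strand): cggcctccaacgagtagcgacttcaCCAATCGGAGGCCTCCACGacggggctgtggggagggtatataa
Creld2, chr15:88819495-88819563 (+ strand): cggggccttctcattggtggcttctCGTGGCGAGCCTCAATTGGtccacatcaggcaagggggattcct
Pdia6, chr12:17266466-17266534 (+ strand): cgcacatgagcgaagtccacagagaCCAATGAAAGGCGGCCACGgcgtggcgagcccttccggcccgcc
Derl3, chr10:75893217-75893285 (+ strand): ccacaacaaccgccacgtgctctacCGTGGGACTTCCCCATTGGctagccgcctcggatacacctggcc
Calr, chr8:84847050-84847118 (- strand): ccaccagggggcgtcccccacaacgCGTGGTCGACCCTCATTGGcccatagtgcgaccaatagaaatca
Hsp90b1, chr10:86705508-86705681 (- strand): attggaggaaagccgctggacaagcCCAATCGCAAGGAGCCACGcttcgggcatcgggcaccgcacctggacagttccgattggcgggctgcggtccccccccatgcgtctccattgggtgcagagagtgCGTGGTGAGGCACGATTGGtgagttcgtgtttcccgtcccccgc
Canx, chr11:50325775-50325843 (- strand): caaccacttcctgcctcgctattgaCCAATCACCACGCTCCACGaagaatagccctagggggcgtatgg
Ero1b, chr13:12565657-12565725 (+ strand): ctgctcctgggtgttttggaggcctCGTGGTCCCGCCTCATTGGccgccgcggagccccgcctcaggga
Hsp90b1 carried 2 copies. In Hspa5, Pdia6 and Canx the element read in the direction of the gene, while in Creld2, Derl3, Calr and Ero1b it read on the opposite strand. Over all genes of the table, 37 of 27025 held this element in the 300 bases around the start, or 0.137%. Of the 23 list members with a promoter sequence, 10 held it: Hspa5, Hsp90b1, Creld2, Pdia6, Dnajc3, Calr, Canx, Syvn1, Derl3 and Ero1b. A shorter form, ATTGG and CCACG parted by 1 base, was found in 12 genes of the table, among them Dnajb11 and Herpud1 of the list. Its window in Herpud1, an ER membrane protein of the degradation machinery, is shown for comparison.
Herpud1, chr8:94386352-94386412 (+ strand): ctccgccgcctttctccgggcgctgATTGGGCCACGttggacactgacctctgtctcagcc

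The 12 list members with either element had a median difference of 0.19 in XX and 0.03 in XY. Of these, 9 were higher without overlap between the XX groups, where 7.46% of all genes behaved so. The 11 members whose promoter held neither had a median of 0.02, and 4 of them were higher without overlap, Sdf2l1 and Xbp1 included. The other 6 members had no promoter in the table and a median of 0.08. Outside the list, 19 tested genes carried the longer element. Their median difference in XX was -0.05, with 2 not overlapping upward (7.46% of all genes) and 4 downward (7.41%). They include members of the Esp and Xlr3 families, with an SE of up to 0.21. Alg12, among the upward ones, lies beside Creld2 and holds the same copy of the element. The 7 tested genes outside the list with the shorter element had a median of 0.05, with 2 not overlapping upward and 0 downward, beside the same shares of all genes. These counts are descriptions, since the list holds genes chosen for their known place in the pathway and with earlier results of these data known.

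Among the chaperones, Sdf2l1 was at 8.58, 8.55 and 8.41 in wild type and 9.34, 9.36 and 9.38 in knockout XX arrays. It rose by 0.85 (SE 0.11; limma adjusted p = 0.0321), or 1.80-fold. In XY the difference was 0.01 with overlapping groups. The difference between the sexes did not pass the test over all genes (unadjusted p = 0.00019, limma adjusted p = 0.528). The call of Sdf2l1 in XX was lost without any single XX array, with limma adjusted p between 0.103 and 0.184. It was also lost without wild-type XY array 3 (0.0737) or knockout XY array 2 (0.0588), and when all 41345 values of the table were tested together.

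Hspa5, which encodes BiP, the main Hsp70 chaperone of the ER, was at 8.22, 8.41 and 8.33 in wild type and 8.75, 8.81 and 8.82 in knockout. The groups were separate, with a difference of 0.47 (SE 0.07; limma adjusted p = 0.0626). Hspa5 passed under 3 alternative settings. Its limma adjusted p was 0.00522 where the spread was allowed to depend on brightness, a setting in which 26 of all genes passed (0.117%), and 0.00587 among the brighter genes alone, of which 16 passed (0.144%). Manf, a secreted chaperone partner with neurotrophic activity, stood at 7.39 ± 0.03 and 7.80 ± 0.02 (SD, n = 3), a difference of 0.41. Dnajb11, a BiP co-chaperone, differed by 0.39, and Hyou1, another Hsp70 relative of the ER, by 0.17. The lectin chaperone Calr was 11.21, 11.16 and 11.17 against 11.43, 11.41 and 11.35, a difference of 0.22, whereas its membrane-bound relative Canx overlapped at -0.05 (SE 0.06). Hsp90b1, the Hsp90 of the ER, differed by 0.15 (SE 0.07).

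Among the disulfide isomerases and their partners, Creld2 was at 8.35, 8.39 and 8.40 in wild type and 8.83, 8.75 and 8.98 in knockout. Its difference was 0.47 (SE 0.07; limma adjusted p = 0.0786). Pdia6 was at 8.13, 8.22 and 8.23 against 8.54, 8.57 and 8.57, a difference of 0.37 (SE 0.06; limma adjusted p = 0.0953). Both groups were separate without passing the test. Pdia3 differed by 0.23 (SE 0.09), while P4hb, the founding disulfide isomerase, was at -0.06 and Txndc5 at -0.01.

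Of the regulators, Xbp1, a transcription factor activated by splicing of its RNA, was at 9.90, 9.97 and 9.95 against 10.33, 10.33 and 10.18, a difference of 0.34 (SE 0.06; limma adjusted p = 0.143). The array level does not tell the spliced from the unspliced form here. Atf6 differed by 0.03 (SE 0.05). In the degradation branch, Derl3 was at 6.58, 6.12 and 6.46 against 6.89, 6.90 and 6.96, with a difference of 0.53 (SE 0.12; limma adjusted p = 0.276), and its wild-type arrays varied most. The wild-type mean of 6.39 lay under the dim yardstick of 6.47, so the size of this difference is uncertain. The relatives Derl1 and Derl2 differed by 0.06 and 0.01, and Herpud1 and Sel1l by 0.17 and 0.11. Of the 6 members that were lower, Hspa13 had the largest size, at -0.17 (SE 0.07), followed by Dnajb9, a co-chaperone, at -0.13 (SE 0.06).

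The mean level over the 29 ER genes was 8.83 to 8.84 in the 3 wild-type XX arrays and 9.01 to 9.02 in the 3 knockout XX arrays. It was 8.77 to 8.89 in wild-type and 8.86 in each knockout XY array (8.855 to 8.863 before rounding). The XX knockout arrays therefore lay above all 9 others. The difference between the sexes had an unadjusted p under 0.01 in 8 of the 29 members, where 0.974% of all genes did; none passed after adjustment, the smallest adjusted p being 0.528.

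**Figure D2:**
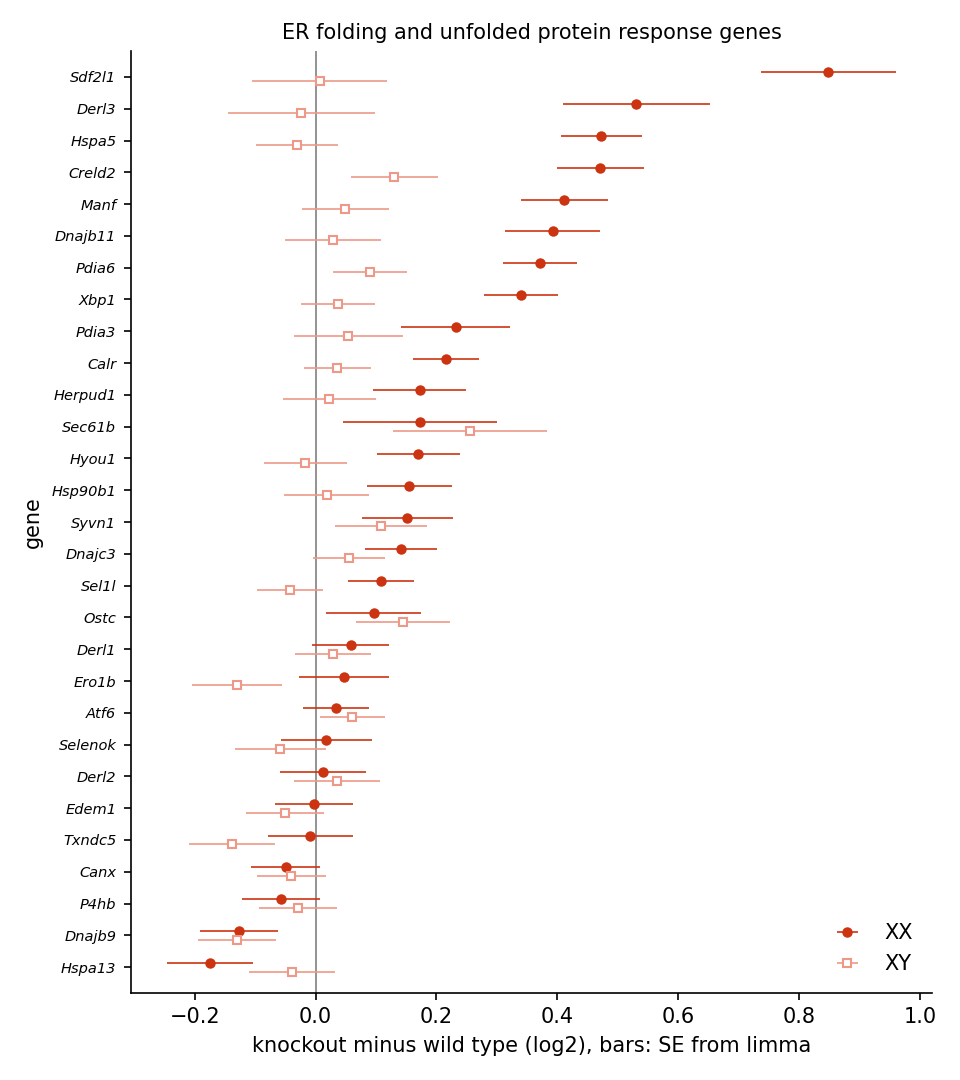
Difference between knockout and wild type (x axis, log2) for each of the 29 ER folding and unfolded protein response genes (y axis), in XX (filled circles) and XY (open squares), with SE from limma over 3 arrays a group. In XX, 8 genes from Sdf2l1 at 0.85 to Xbp1 at 0.34 lie apart from the rest (Derl3 is dim in wild type), while in XY the same genes lie between -0.03 and 0.13.

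Other stress responses were covered by separate lists. In the amino acid and integrated stress response list, 8 of 23 tested genes were higher and 15 lower, with a median of -0.10. Ddit3, the transcription factor CHOP, was 8.25, 8.29 and 8.27 against 8.42, 8.63 and 8.61 (difference 0.28, SE 0.08; limma adjusted p = 0.404). Psat1, an enzyme of serine synthesis, went the other way, at 8.48, 8.59 and 8.64 against 8.15, 8.18 and 8.04 (-0.45, SE 0.08; limma adjusted p = 0.169). Neither overlapped between the groups. Of 17 cytosolic and mitochondrial heat shock genes, 12 were higher and 3 did not overlap, all upward (7.46% of all genes), with a median of 0.06 and a largest difference of 0.40. In XY the median of that list was -0.08, with 15 of 17 lower and 3 lower without overlap (5.64% of all genes).

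Myelin is the lipid-rich sheath that oligodendrocytes wrap around axons, held together by a small set of abundant proteins. All 29 tested genes of the myelin and mature oligodendrocyte list (32 entries) were lower on average in knockout XX cerebellum, where 49.4% of all genes were lower. Their differences ran from -0.72 to -0.03, with a median of -0.27. The XX groups did not overlap for 21 of them, where 7.41% of all genes were lower without overlap (8.43% of brighter genes). At an unadjusted p under 0.01 there were 7, against 0.974% of all genes. Only Opalin passed the test. In XY, 27 of the 29 were lower, 4 did not overlap, against 5.64% of all genes, and the median was -0.14. In bulk RNA, fewer oligodendrocytes and less RNA per oligodendrocyte cannot be told apart. This list was chosen with the earlier result for Opalin known.

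Opalin was at 7.707, 7.496 and 7.438 in wild type and at 6.74, 6.90 and 6.85 in knockout XX arrays. It fell by 0.72 on the log2 scale (SE 0.08; limma adjusted p = 0.0144), or 1.64-fold. In XY it differed by -0.19, and the sexes were not shown to differ (unadjusted p = 0.00087, limma adjusted p = 0.772). With the 6 XX arrays alone the adjusted p of Opalin was 0.175. It was also lost, at 0.0567 to 0.0998, without wild-type XX array 1 or 2 or knockout XX array 1 or 3.

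Mal, a proteolipid that sorts proteins to the myelin membrane, was at 9.42, 9.43 and 9.43 against 8.88, 8.89 and 8.93, a difference of -0.53 (SE 0.09; limma adjusted p = 0.124). Its XX arrays were nearly level within each group, while in XY the groups overlapped at -0.19. Cldn11, the tight junction protein of the sheath, was at 10.12, 10.08 and 10.10 against 9.61, 9.80 and 9.63 (-0.42, SE 0.09). Mobp, a compact myelin protein, differed by -0.38 in XX and 0.01 in XY. Mog, on the outer surface of the sheath, was at 9.34, 9.28 and 9.22 against 8.91, 8.75 and 8.82 (-0.45, SE 0.13). Mbp, the major cytoplasmic protein of compact myelin, differed by -0.27 (SE 0.09), Cnp, an enzyme of its cytoplasmic channels, by -0.21 (SE 0.06), and Mag, on the axon-facing membrane, by -0.36 (SE 0.13). None of these passed the test alone.

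The transcription factors of the lineage lay lower too without passing. Myrf differed by -0.33 (SE 0.11) and Sox10 by -0.27 (SE 0.12), the latter at 7.36, 7.28 and 7.50 against 7.16, 7.06 and 7.10. Olig1 and Olig2, which precursors share with mature cells, were at -0.27 and -0.22. Over the 12 genes of oligodendrocyte precursors the median was 0.01, with 7 higher and 5 lower. Of these, 1 was lower without overlap (7.41% of all genes) and 0 higher (7.46%). The members near 0 in the myelin list were Adamts4 (-0.03), Gjb1 (-0.04) and Plekhb1 (-0.05).

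Summed over the 29 genes, the intensity was 13994 to 15104 in wild-type and 11604 to 12358 in knockout XX arrays, without overlap. In XY it was 13464 to 15012 and 11245 to 14552, with overlap. In every setting tried the list median in XX stayed between -0.30 and -0.22.

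**Figure D3:**
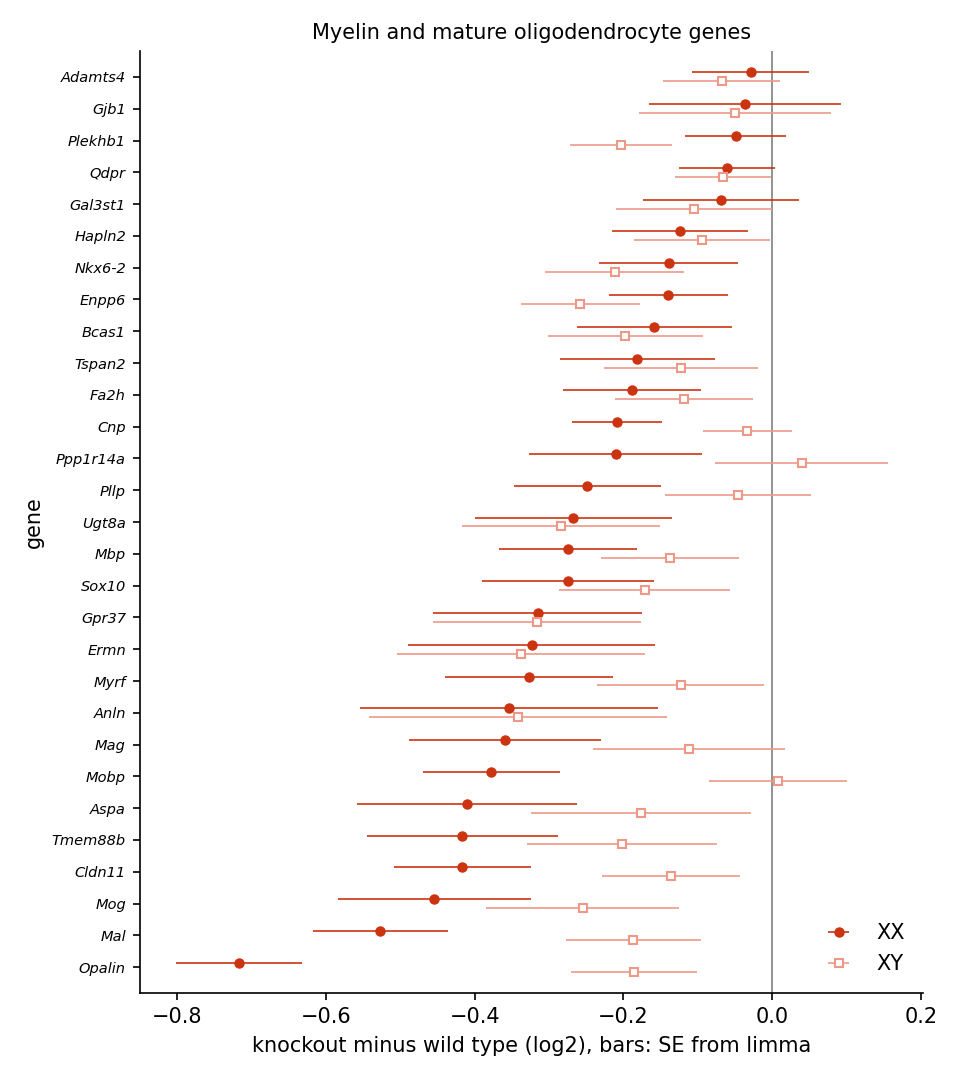
Difference between knockout and wild type (x axis, log2) for the 29 myelin and mature oligodendrocyte genes (y axis), in XX (filled circles) and XY (open squares), with SE from limma over 3 arrays a group. All XX points lie below 0, from Opalin at -0.72 to Adamts4 at -0.03, and the difference is larger in size in XX than in XY for 18 of the 29.

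The sampled piece of cerebellum can bring more or less of its surroundings, so the marker lists of other cell types are given here; their part in the differences above was not tested. Choroid plexus, the secretory epithelium of the ventricles, varied most between arrays. The summed intensity of its 17 tested genes was 2167 to 13816 in wild-type and 1824 to 11845 in knockout XX arrays, and its median difference was -0.19. Its marker Ttr, a carrier of thyroid hormone, ran from 8.88 to 13.32 in wild type and from 7.59 to 13.11 in knockout. With the choroid plexus level as a covariate, 4 of the 5 genes still passed, and Sdf2l1 had an adjusted p of 0.0649. Ependymal genes had a median of 0.01 and genes of meninges and fibroblasts of -0.04, with 0 members not overlapping in either list. Pituitary hormone genes (7 tested) had a median of -0.13 and blood genes (5 tested) of -0.01. The mean levels of the ependymal, pituitary and blood lists lay between 5.56 and 6.24 in the XX arrays. These levels are under the dim yardstick, so the medians of these lists say little.

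A further 4 genes that lay lower in knockout XX cerebellum were set together here with their values known. In each, array 3 was the highest of the 3 knockout arrays, but how many other lower genes share this order was not counted. Slc17a6, the vesicular glutamate transporter of deep nuclei and brainstem neurons, was at 7.55, 7.40 and 7.76 against 5.86, 5.95 and 7.08. Its difference of -1.27 had an SE of 0.36 and did not pass (limma adjusted p = 0.42). Cd24a, a surface protein of young neurons and ependyma, was at 7.99, 8.06 and 7.97 against 6.93, 7.13 and 7.75 (-0.74, SE 0.18; limma adjusted p = 0.317). Kcnc2, a fast potassium channel, differed by -0.86 (SE 0.23) and Meis2, a homeobox factor, by -0.61 (SE 0.20). These 4 genes come from different lists or none. Kcnc2 lay under the dim yardstick in every XX array, and Slc17a6 and Meis2 in knockout XX arrays 1 and 2. The corresponding values in XY were -0.64, -0.47, -0.51 and -0.31. The mean level of the myelin list was 8.31, 8.26 and 8.36 in knockout XX arrays 1 to 3, against 8.53 to 8.64 in wild type. Over the 9 tested genes of unipolar brush cells and deep nuclei the median was -0.02, with 2 higher without overlap (7.46% of all genes) and 1, Slc17a6, lower (7.41%). The higher ones were Nrn1, a membrane-anchored plasticity protein, at 0.40 (SE 0.08; limma adjusted p = 0.227), and Eomes, a factor of unipolar brush cells, at 0.18. Hindbrain Hox and monoaminergic genes (21 tested) had a median of 0.02. Of these, 6 were lower without overlap (7.41% of all genes) and 1 higher (7.46%), the lower ones including Tph2, the serotonin-making enzyme of the raphe, at -0.26 (SE 0.09). The mean level of this list was 5.67 to 5.75 in the XX arrays, under the dim yardstick, so these counts are uncertain.

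The principal cell types of the cerebellum differed little. Purkinje genes had a median of 0.03 over 17 tested members, granule cell genes of -0.00097 over 22 and inhibitory interneuron genes of 0.04 over 20. None of their members passed the test or had an unadjusted p under 0.01. Of 21 genes of Bergmann glia and astrocytes, 13 were lower and 8 higher, with a median of -0.07. The groups did not overlap for 7 lower (7.41% of all genes, 8.43% of brighter genes) and 2 higher ones (7.46% of all genes). Tnc, an extracellular matrix glycoprotein, was at 7.08, 7.12 and 6.98 against 7.74, 7.49 and 7.38 (0.47, SE 0.11; limma adjusted p = 0.276) and -0.13 in XY. Microglia genes had a median of 0.04 over 19 members, with Cd68, a lysosomal protein, at 0.34 (SE 0.08) and Tmem119, a homeostatic marker, at -0.23 (SE 0.07). Both were separate in XX, in opposite directions. The chemokine Ccl3, also made by microglia, was at 7.26, 6.92 and 6.67 against 7.70, 7.51 and 7.85 (0.74, SE 0.14; limma adjusted p = 0.229). Endothelial and pericyte genes had a median of 0.06.

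Because Ciz1 anchors Xist, genes of the X chromosome were looked at apart. Xist was at 11.88, 12.01 and 12.23 in wild type and 12.16, 12.28 and 12.05 in knockout XX arrays, with overlap. The difference was 0.12 with an SE of 0.56 from the shared spread, to which wild-type XY array 3 adds. The arrays measure the amount of Xist RNA and not its place in the nucleus. The median over 899 X-linked genes was -0.0065, inside the range of the 19 autosomes (-0.012 to 0.010). At an unadjusted p under 0.01, 20 X-linked genes were higher (2.22%) and 15 lower (1.67%). The autosomes ran from 0.579% to 1.71% higher and from 0.386% to 1.67% lower. Among the 355 X-linked genes brighter than the median gene, 13 were higher (3.66%) and 5 lower (1.41%), against 1.21% higher and 0.884% lower over all genes of that brightness, while the highest autosome had 2.34% higher. In XY, 0 of these 355 were higher at that p and 3 were lower. Counted by non-overlap in XX, the X did not exceed every autosome. Of the 355, 38 were higher (10.7%) and 36 lower (10.1%), against 9.47% and 8.43% of all brighter genes. Chromosome 11 had 10.9% higher by that count. Over all 899 X-linked genes, 7.45% were higher without overlap, against 7.46% of all genes. No X-linked gene passed the test after adjustment, and whether the X differs from the autosomes was not tested.

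**Figure D4:**
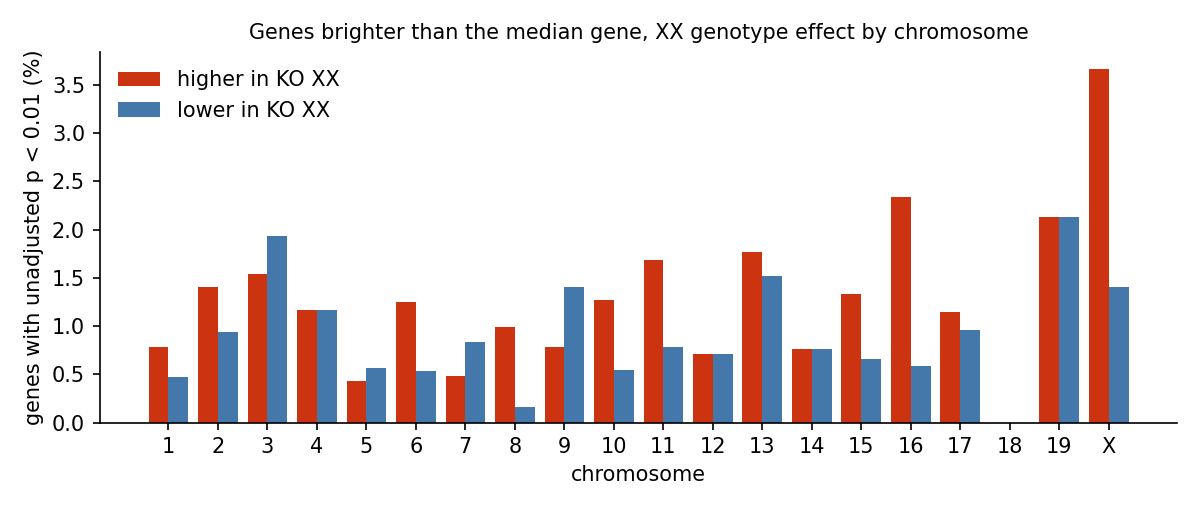
Share of genes (y axis, percent) with an unadjusted limma p under 0.01 and higher (red) or lower (blue) in knockout XX cerebellum, by chromosome (x axis), among genes brighter than the median gene. The X has the tallest red bar, 3.66% of 355 genes, and the autosomes reach at most 2.34% higher and 2.13% lower; chromosome 18 has 0 of its 284 genes in either direction.

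Some genes escape silencing on the inactive X and are expressed from both copies. Of 15 tested escape genes (17 entries), 9 were higher and 6 lower, with a median of 0.07. The groups did not overlap for 5 higher genes (7.46% of all genes) and 1 lower gene (7.41%). Kdm5c, a histone H3 lysine demethylase, was at 9.99, 9.91 and 10.03 against 10.27, 10.26 and 10.24, a difference of 0.28 (SE 0.06; limma adjusted p = 0.229) and -0.03 in XY. It passed with the spread dependent on brightness. Utp14a, a ribosome assembly factor, was at 7.22, 7.17 and 7.23 against 7.47, 7.57 and 7.51 (0.31, SE 0.07; limma adjusted p = 0.317) and -0.13 in XY. Iqsec2, a synaptic exchange factor for Arf proteins, differed by 0.31 and Pbdc1 by 0.25. The groups of these 4 genes were separate in XX. Other classic escape genes were not: Kdm6a, a histone demethylase, differed by -0.08 (95% interval -0.21 to 0.05), and Ddx3x, an RNA helicase, by 0.0010 (-0.21 to 0.22). Mid1, which lies at the boundary of the pseudoautosomal region, ran from 8.59 to 10.59 in the 3 wild-type arrays alone, so its difference of -0.65 (SE 0.48) lay within the spread.

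X-linked genes outside that list with an unadjusted p under 0.01 included Gpr173, an orphan receptor, at 8.06, 8.02 and 7.99 against 8.30, 8.35 and 8.35 (0.31, SE 0.05; limma adjusted p = 0.127). Hdac8, a deacetylase of cohesin, was at 8.74 ± 0.07 against 9.01 ± 0.02 (SD, n = 3; difference 0.27, SE 0.07). Rab39b and Praf2, proteins of vesicle traffic, differed by 0.20 and 0.22. Ctps2, an enzyme of CTP synthesis, was separate in the other direction, at -0.27 (SE 0.07). These 4 after Gpr173 were chosen with their values known. Kir3dl1, a receptor of the natural killer family, had the largest difference on the X, 0.92 (SE 0.15; limma adjusted p = 0.0876), but lay between 4.54 and 5.70, under the dim yardstick. Over the 24 tested Xist and X-inactivation factors the median was 0.0055, and none had an unadjusted p under 0.01.

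Immediate early genes switch on within minutes of neuronal activity or handling. Of 32 tested, 21 were lower in XX and 11 higher, with a median of -0.04, and 6 were lower without overlap (7.41% of all genes). In XY the median was -0.11 and 10 were lower without overlap (5.64% of all genes). Nr4a2, an orphan nuclear receptor, was at 9.51, 10.11 and 9.49 against 8.90, 9.11 and 8.67, a difference of -0.81 (SE 0.19; limma adjusted p = 0.276). Fos was at 7.80, 8.40 and 7.80 against 7.56, 7.84 and 7.33 and overlapped. In both genes wild-type XX array 2 was the highest. Fosb, Dusp1 and Jund differed by -0.34, -0.32 and -0.19, with XY values of -0.32, -0.33 and -0.05.

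Among single genes lower in XX but short of the threshold, Trank1, a large ankyrin and tetratricopeptide repeat protein of neurons, had a difference of -0.81 (SE 0.13; limma adjusted p = 0.085). It was at 9.48, 9.62 and 9.58 against 8.78, 9.02 and 8.46, and at 9.57 to 9.89 in all 6 XY arrays. The knockout XX arrays thus lay below the other 9, though the difference between the sexes did not pass (unadjusted p = 0.000641, limma adjusted p = 0.719). Tpbg, a Wnt-inhibiting membrane protein, had the same order, at 8.28, 8.34 and 8.25 against 7.89, 7.98 and 7.70 (-0.44, SE 0.07; limma adjusted p = 0.112) and 0.05 in XY. Tet2, an enzyme that oxidises 5-methylcytosine, was at 9.36, 9.45 and 9.39 against 9.19, 9.11 and 9.10 (-0.27, SE 0.05). Gpr153, an orphan receptor, differed by -0.31 (SE 0.06).

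Hrk, a BH3-only protein that promotes neuronal death, was at 6.11, 6.11 and 6.20 against 5.72, 5.76 and 5.72 (-0.41, SE 0.06; limma adjusted p = 0.0786) and -0.33 in XY. Gpr45, an orphan receptor, was at 6.41, 6.39 and 6.43 against 5.98, 6.00 and 5.93 (-0.44, SE 0.07; limma adjusted p = 0.0786). Both lay under the dim yardstick, as did Rtp2, a receptor transporter, at -0.43 and Spdye4b, a Speedy family protein, at -0.37. Of the genes higher in XX, Trim69, a ubiquitin ligase, differed by 0.53 at a level of 4.82 to 5.54, under the yardstick too. Tex29, a testis-expressed gene, differed by 0.40 and Mpzl2, an adhesion protein, by 0.60.

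Ces3b passed the test at 3.505, 3.73 and 3.62 against 4.48, 4.58 and 4.48 (0.90, SE 0.08; limma adjusted p = 0.00105). It ranked in the dimmest 6.65% of genes, and every array lay below the 95% yardstick of the olfactory receptors. The wild-type XX arrays lay below all others, since the XY arrays were at 4.10 to 4.37. A change in its RNA was therefore not shown.

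The remaining lists had medians between -0.06 and 0.05 in XX, apart from Y-linked genes, which XX animals lack, at -0.11. They cover DNA replication and the cell cycle, where Ciz1 was first studied, and other functions of the tissue. Of 31 tested genes of G1/S control and DNA replication, 18 were higher and 13 lower, with a median of 0.03 and 0 with an unadjusted p under 0.01. Of 25 G2/M and mitosis genes, 13 were higher, with a median of 0.0040; Bub1b, a spindle checkpoint kinase, was at -0.49 (SE 0.14; limma adjusted p = 0.424). The mean level of the G2/M list was 5.83 to 5.93 in the XX arrays, under the dim yardstick, so its median says little. DNA damage and p53 targets (23 tested) had a median of -0.03, with Phlda3, an inhibitor of Akt, at -0.35 (SE 0.09). In the Bcl2 family (15 tested) the median was 0.0014, with 4 lower without overlap (7.41% of all genes) and 0 higher (7.46%). In the list of inherited dystonia genes (22 tested) the median was 0.03, with Ciz1 as the only member past the threshold. Inherited ataxia genes (19 tested) had a median of -0.02.

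Energy and synapse lists were close to 0 as well. Of 45 respiratory complex subunits, 32 were higher, with a median of 0.05. The groups did not overlap for 8 higher (7.46% of all genes, 9.47% of brighter genes) and 2 lower ones (7.41% of all genes). Ndufs4, a complex I subunit, was at 0.36 (SE 0.07; limma adjusted p = 0.232). Cytosolic ribosomal proteins (37 tested) had a median of 0.02, G protein beta and gamma subunits (13) of 0.02, synaptic vesicle release genes (27) of 0.01 and voltage-gated channels (29) of -0.04. Gng3, a gamma subunit of neurons, differed by 0.37 (SE 0.07) and Unc13a, a priming factor of synaptic vesicles, by 0.26 (SE 0.06), without overlap. Stx1a, a membrane SNARE protein, went the other way at -0.30 (SE 0.08). Polycomb complexes (25) had a median of -0.04, imprinted genes (38) of -0.0091, cholesterol synthesis genes (19) of -0.05, circadian clock genes (18) of -0.02, glucocorticoid-responsive genes (21) of 0.02, steroid hormone receptors (11) of -0.0094 and iron handling genes (11) of -0.02. Of the cholesterol synthesis genes, 5 were lower without overlap (7.41% of all genes) and 2 higher (7.46%). Interferon response genes (23) had a median of -0.06 in XX with 0 not overlapping, and 0.18 in XY with 8 higher without overlap (4.66% of all genes in XY).

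The genotype effects in XX and XY were also set against each other over all genes. None of 22180 genes (0.0%) passed the test of the difference between the sexes in limma, with 1070 (4.82%) at an unadjusted p under 0.05. The smallest adjusted p, 0.0625, was that of Nnt, a mitochondrial enzyme that makes NADPH. It differed by -0.15 in XX and 0.54 in XY, so that its large value belonged to the XY animals. Rhoj, a small GTPase of endothelium, was at 7.80, 8.42 and 8.47 against 8.34, 8.37 and 8.18 in XX, a difference of 0.07, and at -1.30 in XY (limma adjusted p for the difference = 0.243). Without wild-type XX array 1, which was low for this gene, the difference between the sexes in Rhoj passed the test. Ly6i, a dim gene of the Ly6 family, differed by 0.31 in XX and -0.24 in XY.

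**Figure D5:**
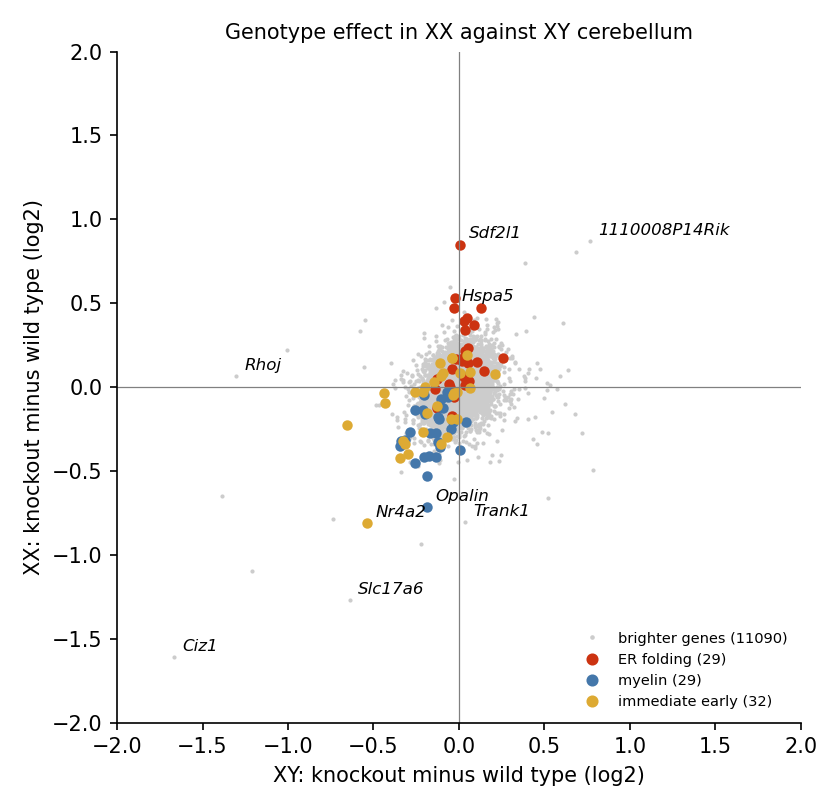
Difference between knockout and wild type in XX (y axis, log2) against that in XY (x axis, log2) for the 11090 genes brighter than the median gene (grey), with the ER folding, myelin and immediate early lists marked, dimmer members included. The ER genes spread upward along the vertical axis, up to 0.85 in XX at 0.01 in XY for Sdf2l1, while most myelin genes lie at the lower left.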

How the data were processed

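Total cerebellar RNA of 12 mice, 1 Affymetrix whole-transcript array each, was grouped by source name into 4 groups of 3; replicate numbers follow the order of the records and only name an array. The authors deposited RMA values of a core-exon analysis made in Expression Console, as the labels' protocols state. The submitters' processing notes list Transcriptome Analysis Console 3.0 beside it. Each deposited value is an intensity on a linear scale (array medians 96.5 to 98.7), so log2 was taken here, with no pseudocount and no further normalization; log2 values had been assumed when the design was written. RMA summarises the probes of a gene, so a change in part of a transcript can be diluted. The number of arrays limits the precision. Whether the mice of a group were littermates is not given in the sources used here.

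Of 41345 values per array, 23521 had 1 gene symbol in the platform annotation, 1814 several and 16010 none. For the 1082 genes with more than 1 such value the brightest was used, giving 22180 genes, of which 21994 matched RefSeq (GRCm38.p6) by gene ID. No gene was removed for low brightness. limma 3.58.1 in R 4.3.3 fitted 4 group means over 12 arrays (8 residual degrees of freedom), with two-sided tests and Benjamini-Hochberg adjustment over all genes at 0.05. Tested on simulated data with 200 changed genes of 22180, the XX comparison recovered 0% of differences of 0.3, 69% of 0.5 and 96.5% of 0.8. The simulation gave all changed genes 1 size and independent errors, so these shares need not hold for the real data. The differences of most single ER and myelin genes were smaller than 0.5.

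The members, the 41 gene lists (947 entries, 845 tested) and the rules were chosen with earlier results of these data known. Genes named are Ciz1, all genes that passed, up to 12 with the smallest p a direction, the 6 largest differences of brighter genes a direction, the 3 smallest interaction p-values a direction, the 3 smallest p-values in each list and Xist; predicted, Riken and olfactory symbols were counted but not named by rank. Further list members, 1110008P14Rik with its neighbours and the X-linked examples were named after their values were seen. Lists were described by counts and medians. Promoters and sequences are RefSeq's (GRCm38.p6), 250 bases before to 50 after the start. Alternatives were a brightness-dependent spread, array weights, brighter genes alone, quantile normalization, a pseudocount of 16, the mean over the values of a gene, XX arrays alone, a choroid plexus covariate, all values of the table and leaving out each array.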

Additional observations from a re-analysis of the deposited data

Results flagged for a closer look

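Outside the named genes, 2 features with no gene symbol in the platform annotation passed the test in XX when all 41345 features were tested together. Their signal lies in data that the comparisons above do not use. The first was at 6.33, 6.07 and 6.03 in wild-type and 7.78, 7.77 and 7.38 in knockout XX arrays, a difference of 1.50 (SE 0.12; limma adjusted p = 0.0017). In XY it was at 6.29, 6.22 and 6.36 against 7.70, 7.67 and 7.83. The second was at 6.30, 5.88 and 5.98 against 7.95, 7.88 and 7.42 in XX, a difference of 1.70 (SE 0.20; limma adjusted p = 0.0428), and at 6.15, 5.49 and 6.13 against 7.85, 7.74 and 8.14 in XY. Both were higher in each knockout array than in each wild-type array of either sex. All wild-type levels lay under 6.47, below which 95% of olfactory receptor genes had their mean, though above the median of those genes, 4.37. The wild-type side cannot be told from background here, so the sizes of the differences are uncertain. What the features measure is not known here.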

How the results depend on the processing

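The 5 genes of XX became 26 (19 higher, 7 lower) with a brightness-dependent spread, 16 (10 and 6) among brighter genes alone and 8 (5 and 3) with a pseudocount of 16. With only the XX arrays 1 gene was lower. Without 1 array at a time the count ran from 3 to 7, with 2 to 5 higher and 1 to 3 lower; it was 3 without wild-type XX array 1 or knockout XX array 1 or 3. The brightness-dependent call held all 5 genes and added, among others, Hspa5, Creld2, Pdia6, Manf, Dnajb11, Xbp1, Trank1, Tpbg, Mal, Psat1 and Kdm5c. For the difference between the sexes the count of 0 became 2 with that spread and among brighter genes (Nnt and Rhoj), 1 with the pseudocount (Nnt), and 0 to 1 without 1 array. Ciz1 passed in every setting, at -1.67 to -1.51, and 1110008P14Rik in every setting too. The list medians of ER and myelin genes kept their sign, at 0.11 to 0.15 and -0.30 to -0.22. The signs of 3 small differences changed: without 1 array, Rhoj ran from -0.15 (without wild-type XX array 1) to 0.19, Camp from -0.099 to 0.016 (0.0093 without wild-type XX array 2 and 0.016 without knockout XX array 3), and Prl from -0.66 to 0.0031 (without knockout XX array 3). Of 1947 values of 142 named genes, 1895 kept direction and side of the threshold. The cause was not tested. No paired analysis was possible because the labels give no shared replicate numbers. Dim genes, under 6.47, cannot be told from background.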

Other observations

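Other promoter elements were counted on both strands in the same 300-base windows. The cAMP response element TGACGTCA was found in 549 of 27025 genes (2.03%). Of the tested genes 447 carried it, with a median difference of 0.0090 in XX. Without overlap, 37 were higher (7.46% of all genes) and 35 lower (7.41% of all genes). Of 25 immediate early genes with a promoter sequence, Dusp1 and Btg2 held it. The amino acid response element TGATGNAAT was found in 293 genes (1.08%), among them Nupr1, a stress-induced chromatin protein, of the amino acid and integrated stress response list. Its 158 tested carriers had a median of -0.014. The Nr4a element AAAGGTCA was found in 460 genes (1.70%) and in no member of the ER, immediate early or amino acid lists with a promoter sequence, and its 259 tested carriers had a median of -0.0027.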
